A study of Mus musculus with 6 samples.

Results

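The 10 genes of mature B cells described here were measured in 6 RNA sequencing libraries of mouse spleen. The genes are Cr2, Fcmr, Fcer2a, Ms4a1, Cd1d1, Cd9, Cd24a, Cd72, Cd37 and Mzb1. They are 10 of the 40808 genes in the count table, and all 10 were measured. The set was selected on measured values of these same libraries, in that Cr2 and Fcmr were picked out for their large increase with Dox, and the others are listed with them as surface genes of mature B cell subsets. The difference between the groups in these 10 genes is therefore given as a description, without a test. The labels give the RNA as that of leukaemia cells of the spleen, from recipients of transplanted bone marrow. Haemoglobin took 8.61% to 9.04% of the counts without Dox and 14.1% to 15.9% with Dox. Genes of B cells, neutrophils and platelets were present too, so the libraries held RNA of other cells as well. In 3 libraries (replicates 4, 5 and 6) the mice had no Dox, and in 3 (replicates 10, 11 and 12) they had Dox. By the labels, both groups were transplant recipients with leukaemia, which serve as the only reference for each other. Genes of T cells and of receptor gene assembly were far lower with Dox, as given below. The share of leukaemia cells in each library was not measured. The gene under control of Dox, its promoter, the dose and duration, and the strain, sex and age of the mice are not given in the sources used here. Nothing states whether the libraries of a group came from separate mice, so errors describe the spread between libraries.

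As background, mature B cells of the spleen fall into 2 main subsets. Follicular B cells recirculate and fill the lymphoid follicles, and are known for high surface CD23 (Fcer2a). Marginal zone B cells stay at the border of the follicle and the blood sinus, respond quickly to blood-borne antigen, and are known for high CD21 (Cr2), CD1d (Cd1d1) and CD9 (Cd9). The marginal zone fate needs the receptor NOTCH2 on the B cell and its ligand DLL1 on stromal cells of the spleen. The study's title concerns the control of NOTCH receptors, and genes of this axis were read beside the markers.

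The libraries held 5541486 to 8725767 counts. Levels are given as CPM, which puts all libraries on a common total, after TMM scaling for library composition. The kit reads the 3′ end of each mRNA, so that a transcript gives about 1 fragment whatever its length. Levels of different genes can then be set beside each other without a length correction. Exon overlap with another gene, given below where present, can still affect a counted level. A floor of 3 counts stood for 0.31 to 0.61 CPM, a limit that covers counting error only. The biological coefficient of variation was 0.190 among libraries without Dox and 0.515 among those with Dox. The groups also differed in sex-linked expression: Xist had 193 to 324 counts without Dox and 3347 to 5669 with Dox, and 4 Y-linked genes together had 545 to 801 counts without Dox and 0 with Dox. Dox and this difference cannot be told apart in these libraries. In RNA of whole cell mixtures, fewer cells of a type and less RNA per cell cannot be told apart either. T cell genes summed to 3144 to 3438 CPM without Dox and 292 to 349 CPM with Dox, and 20 general B cell genes to 201 to 228 and 2343 to 2545 CPM.

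RefSeq start sites on GRCm38.p6 were found for 6 of the 10 genes (Cr2, Fcmr, Fcer2a, Cd72, Cd9 and Cd37). The 250 bases before the start are shown for 4 of them: Cr2, Fcmr and Fcer2a, the receptors that were near 0 without Dox and abundant with it, and Cd9, whose level overlapped between the groups. Cr2 lies on the minus strand (chr1:195176720-195176969), Fcmr on the plus strand (chr1:130865527-130865776), Fcer2a on the minus strand (chr8:3694175-3694424, the first of 3 listed starts) and Cd9 on the minus strand (chr6:125494761-125495010). Sequences run 5′ to 3′ on the strand of the gene, and capitals mark matches to the motifs searched.
Cr2: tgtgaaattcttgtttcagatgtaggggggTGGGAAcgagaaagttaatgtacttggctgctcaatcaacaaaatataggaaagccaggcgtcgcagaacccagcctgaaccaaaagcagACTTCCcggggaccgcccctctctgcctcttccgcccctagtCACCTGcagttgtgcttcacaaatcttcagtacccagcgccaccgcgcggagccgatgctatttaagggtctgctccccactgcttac
Fcmr: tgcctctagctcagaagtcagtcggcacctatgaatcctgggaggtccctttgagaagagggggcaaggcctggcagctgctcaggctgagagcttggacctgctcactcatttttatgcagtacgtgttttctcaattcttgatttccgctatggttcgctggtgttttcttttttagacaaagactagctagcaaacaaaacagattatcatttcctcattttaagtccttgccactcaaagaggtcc
Fcer2a: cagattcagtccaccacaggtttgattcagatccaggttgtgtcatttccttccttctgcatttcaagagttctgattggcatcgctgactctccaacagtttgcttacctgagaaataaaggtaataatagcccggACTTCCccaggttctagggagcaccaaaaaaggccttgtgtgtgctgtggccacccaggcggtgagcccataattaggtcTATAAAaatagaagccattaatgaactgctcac
Cd9: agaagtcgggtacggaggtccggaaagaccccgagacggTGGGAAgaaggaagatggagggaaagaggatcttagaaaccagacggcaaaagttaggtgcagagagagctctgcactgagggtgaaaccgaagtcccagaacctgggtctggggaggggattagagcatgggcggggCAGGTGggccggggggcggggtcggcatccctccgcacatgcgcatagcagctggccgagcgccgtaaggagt

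Motifs were searched on both strands: TGGGAA (the core bound by CSL, the DNA-binding partner of NOTCH), GGAAGT (a core of ETS factors such as PU.1), CCCNNGGGA (EBF), ATGCAAAT (the octamer), CAGGTG (an E box) and TATAAA (the TATA box). Positions count back from the base before the start. TGGGAA was found at -220 in Cr2 and -211 in Cd9, 2 of the 6 genes, against 21.6% of 32851 windows of the same length. GGAAGT, on the reverse strand, was at -130 in Cr2 and -113 in Fcer2a, and also occurred in Cd72 and Cd37. That made 4 of 6, against 19.7% of all windows. CAGGTG was at -88 in Cr2 and -73 in Cd9 and occurred in Cd37 (3 of 6, against 17.2%). TATAAA was at -33 in Fcer2a (1 of 6, against 12.4%). In the printed windows no match overlapped another. The Fcmr window held none of the 6 motifs. Neither the EBF motif nor the octamer was found in the first windows of the 6 genes (5.60% and 1.60% of all windows). The other 2 Fcer2a windows held TGGGAA, and 1 of them CAGGTG. On the given strand alone, TGGGAA was still in 2 windows and GGAAGT and CAGGTG in 1 each. These matches describe letters in a short window.

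With Dox, 8 of the 10 genes had higher values in each Dox library than in any library without Dox, 1 (Cd24a) had lower values in each, and 1 (Cd9) overlapped. For comparison, among 14110 genes tested 30.0% did not overlap with higher values and 29.6% with lower values. Since the set was chosen on this contrast, nothing is read from these counts. By the test across all genes (edgeR quasi-likelihood, adjusted p under 0.05), 23.6% of the 14110 were higher and 22.1% lower, which is the background for the count of each other gene list. All 10 passed the filter on low counts, but Cr2, Fcmr and Cd72 had fewer than 10 counts in each library without Dox and passed through the Dox libraries only. The median log2 fold change of the 10 was 3.87, or 2.28 with Cd72 set to its lower bound, beside 0.07 over all tested genes. The increases differed widely in size. Scaled for library size, the summed counts of Fcer2a, Cr2 and Fcmr were 52.5 to 294 times higher with Dox. The mean level of Ms4a1 was 126 times higher, whereas Cd37, Cd1d1 and Mzb1 were 2.08 to 4.28 times higher. Cd72, at 0 without Dox, was at least 5.58-fold higher.

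**Figure D1:**
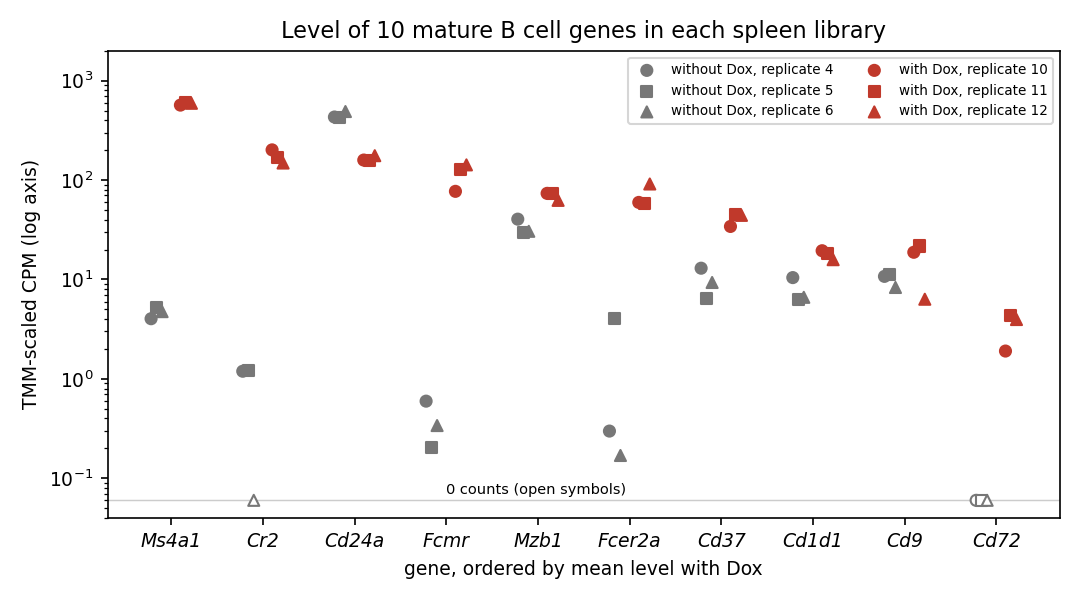
TMM-scaled CPM (log axis) of the 10 genes in each of the 6 libraries, grey without Dox and red with Dox, symbol shapes for replicates, open symbols for 0 counts. Ms4a1, Cr2, Fcmr and Fcer2a are separated by more than a decade, Cd24a is the only gene whose grey points all lie above the red ones, and the Cd9 point of replicate 12 falls below the grey points.

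Among the receptors for complement and antibody, Cr2 encodes CD21 and CD35, which bind complement-coated antigen and lower the threshold of the B cell receptor. Its level was 1.19, 1.22 and 0 CPM without Dox (replicates 4, 5 and 6; 8, 6 and 0 counts) and 201, 167 and 148 CPM with Dox (replicates 10, 11 and 12). The groups lay far apart, and the library with 0 counts was 1 of those without Dox. The ratio of summed counts, scaled for library size, was 215 (95% interval 128 to 393, counting error only), and the fitted log2 fold change was 7.72 ± 0.49 (SE). The fit gave 7.05 without replicate 6 of the group without Dox, the library at 0 counts, and 8.37 with limma-voom.

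Fcmr encodes the Fc receptor for IgM. It stood at 0.60, 0.20 and 0.34 CPM without Dox, from 4, 1 and 2 counts, and at 77.0, 129 and 142 CPM with Dox. The libraries without Dox were at or near the floor, and replicate 10 was the lowest of the Dox libraries. Scaled for library size, summed counts differed 294-fold (95% interval 143 to 732, counting error only). The fitted log2 fold change was 8.13 ± 0.42 (SE).

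Fcer2a encodes CD23, the low-affinity IgE receptor of follicular B cells. Its level was 0.30, 4.05 and 0.17 CPM without Dox and 59.6, 58.4 and 91.3 CPM with Dox. Most of the level without Dox came from 1 library: replicate 5 held 20 counts, replicates 4 and 6 only 2 and 1. The log2 fold change was 5.65 ± 0.73 (SE) with all libraries and 8.03 without replicate 5, 5.05 without replicate 4, 5.02 without replicate 6, and 6.69 with limma-voom. The groups did not overlap with or without that library.

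Of the genes with 4 membrane passes, Ms4a1 encodes CD20, a B cell surface protein known as an antibody target. Ms4a1 was the most abundant of the 10 with Dox and the most even between libraries: 568, 605 and 592 CPM, against 4.03, 5.27 and 4.75 CPM without Dox. The Dox libraries held 4173 to 5876 counts and varied by 3.18% of their mean, the smallest share of the 10 genes. On the log2 scale the difference was 6.98 ± 0.20 (SE). Of 12 other Ms4a genes, 9 were tested, 5 rose (edgeR, adjusted p under 0.05) and 1 fell. Leaving out 1 library at a time gave 3 to 4 higher (3 without replicate 4, 5 or 11) and 0 to 3 lower (3 without replicate 11), and 3 were higher with at least 10 counts in every library. Ms4a3, a gene of myeloid progenitors, had 1 count in all libraries without Dox and 53 to 127 in each Dox library. Its ratio of summed counts, scaled for library size, was 211 (95% interval 37.6 to 8372, counting error only). Its fitted log2 fold change was 7.34, and 9.40 without replicate 4, which held that count. Ms4a4c went from 1.23 ± 0.44 to 36.8 ± 5.6 CPM (SD, n = 3 each; edgeR adjusted p = 8.36e-06), and Ms4a4a fell by 1.88 on the log2 scale (edgeR adjusted p = 0.043), a call lost with upper-quartile factors (adjusted p = 0.0538), under scaling by library size only (adjusted p = 0.0872) and without replicates 4, 5, 6, 10 or 12 in turn.

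Cd37 and Cd9 encode tetraspanins, membrane organisers that gather partner proteins into domains. Cd37, found on lymphocytes and mainly on B cells, was 13.0, 6.49 and 9.32 CPM without Dox and 34.2, 45.0 and 44.1 CPM with Dox. Each Dox library was above each library without Dox, and the log2 fold change was 2.09 ± 0.31 (SE). Its exons share 13 bases with Tead2 on the opposite strand, which had 0 to 4 counts without Dox and 15 to 46 with Dox.

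Cd9, high on marginal zone B cells but also on platelets, was 10.7, 11.1 and 8.31 CPM without Dox and 18.8, 21.7 and 6.33 CPM with Dox. Replicate 12 was below each library without Dox, whereas replicates 10 and 11 were above them, so the groups overlapped through 1 library. The log2 fold change was 0.63 ± 0.46 (SE), and it was 0.99 without replicate 12 and 0.30 without replicate 11. Exons of the gene Gm26728 lie over 218 bases of the Cd9 exons on the opposite strand. Megakaryocyte and platelet genes summed to 399 and 401 CPM in replicates 10 and 11, 318 CPM in replicate 12 and 79.2 to 93.1 CPM without Dox. Of 12 such genes 9 rose among 11 tested (edgeR, adjusted p under 0.05), led by the collagen receptor Gp6 (0.42 ± 0.41 to 19.7 ± 8.4 CPM, SD, n = 3 each) and the tubulin Tubb1 (0.28 ± 0.49 to 9.67 ± 4.77 CPM, SD, n = 3 each). With at least 10 counts in every library 3 were called higher. The fitted log2 fold change of Gp6 was 5.54 (4.89 to 6.22 when 1 library was left out), and that of Tubb1 ran from 4.36 without replicate 4 to 9.1 without replicate 6 (the library that held its 5 counts without Dox). Their part in the level of Cd9 was not tested. Of 20 other tetraspanins 19 were tested, with 2 higher (Tspan33 and Tspan15), 3 lower (Cd53, Tspan2 and Tspan7) and 14 past neither side (edgeR, adjusted p under 0.05), beside 23.6% and 22.1% of all genes. Tspan33 rose by 1.13 and Tspan15 by 1.93 on the log2 scale, while Tspan2 fell from 22.8 ± 2.8 to 5.67 ± 1.31 CPM (SD, n = 3 each) and Tspan7 fell by 2.92 on the log2 scale (edgeR adjusted p from 0.00083 to 0.041 over these 4). The calls of Tspan15 and Tspan7 were each lost under several alternatives: Tspan15 without replicates 5, 6, 10 or 12 in turn (adjusted p up to 0.17), Tspan7 without replicates 4, 5, 6 or 10 (up to 0.106). Their log2 fold changes reached 2.56 for Tspan15 without replicate 4 and -5.44 for Tspan7 without replicate 12. Between 1 and 2 of these tetraspanins were higher when 1 library was left out (1 without replicate 5, 6, 10 or 12), and 2 to 4 were lower. By limma-voom or without a filter on low counts 5 were lower.

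Cd72 encodes an inhibitory lectin-like receptor that recruits the phosphatase SHP-1. It had 0 counts in each library without Dox and 14, 42 and 30 counts with Dox, that is 1.91, 4.32 and 3.95 CPM. The rise was at least 5.58-fold against the floor, taken per library at its highest value. Cd72 had the lowest counted level of the 10 genes with Dox, and its lowest Dox library held only 14 counts. GENCODE M21 places exons of Tesk1 on the opposite strand over 1423 bases of its exons. The strand setting of the counting is not given in the sources used here, and Tesk1 itself had 3 to 13 counts without Dox and 21 to 34 with Dox.

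Cd24a encodes a small glycolipid-anchored protein that is high on immature B and T cells and on red cell precursors and lower on mature B cells. It was the only one of the 10 that was lower with Dox: 431, 431 and 489 CPM without Dox and 159, 157 and 176 CPM with Dox. The lowest value without Dox was well above the highest with Dox, and the level was 2.74 times higher without Dox (log2 fold change -1.46 ± 0.15 (SE)). With scaling by library size only the log2 fold change was -1.15. Of the other cells that use Cd24a, T cell genes fell in 13 of 14 cases (edgeR, adjusted p under 0.05), with the surface protein Thy1 at 464 ± 25 CPM without and 8.90 ± 4.40 CPM with Dox, and the transcription factor Tcf7 at 683 ± 88 and 13.5 ± 9.6 CPM (SD, n = 3 each). Erythroid genes were higher in 7 and lower in 2 of 13 (edgeR). Ermap, a surface protein of red cells, rose by 1.19 on the log2 scale, whereas the globin Hbb-bs fell by 1.23 (edgeR adjusted p = 0.00063 and 4.44e-05). Without replicate 12 the log2 fold change of Tcf7 was -6.41, against -5.67 with all libraries. The part of these cells in the level of Cd24a was not tested.

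Cd1d1 encodes the antigen-presenting molecule that shows lipids to NKT cells and is high on marginal zone B cells. It was 10.4, 6.28 and 6.61 CPM without Dox and 19.5, 18.2 and 15.8 CPM with Dox, a log2 fold change of 1.19 ± 0.35 (SE). The lowest Dox library lay above the highest library without Dox. Its near neighbour Cd1d2 had 0 counts in all 6 libraries. Mzb1 encodes a helper of protein folding in the endoplasmic reticulum of marginal zone B cells and plasma cells, so that it is not itself a surface protein. Its level was 40.4, 30.0 and 30.5 CPM without Dox and 73.5, 74.0 and 62.5 CPM with Dox (log2 fold change 1.05 ± 0.21 (SE)). The groups did not overlap, and with 148 to 271 counts in each library Mzb1 was well measured without Dox too. In GENCODE M21, exons of Mzb1 share 695 bases with another gene on the same strand, Spata24. That gene had 95 to 106 counts without Dox and 33 to 136 with Dox.

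By level with Dox the order was Ms4a1 (588 ± 19 CPM), Cr2 (172 ± 27), Cd24a (164 ± 10), Fcmr (116 ± 34), Mzb1 (70.0 ± 6.5), Fcer2a (69.8 ± 18.7), Cd37 (41.1 ± 6.0), Cd1d1 (17.8 ± 1.9), Cd9 (15.6 ± 8.2) and Cd72 (3.39 ± 1.30), as mean ± SD with n = 3. Values of neighbours in this order overlapped for Cr2 and Cd24a, for Mzb1 and Fcer2a, and for Cd1d1 and Cd9. The other neighbours were separate in their 3 libraries. Without Dox the order differed: Cd24a (450 ± 34 CPM) and Mzb1 (33.6 ± 5.9) led, and Cd9, Cd37 and Cd1d1 followed at 7.78 to 10.1 CPM with overlapping values. Ms4a1, the highest gene with Dox, ranked 6th of 10 without Dox.

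To relate each gene to the B cell signal of its own library, levels were divided by the summed CPM of 20 general B cell genes. Ms4a1 kept the steadiest relation with Dox, at 23.8% to 24.6% of that sum in the 3 libraries. Cr2 was 6.17% to 8.59%, highest in replicate 10, and Fcmr 3.29% to 5.91%, highest in replicate 12. Fcer2a was 2.29% to 3.8%, also highest in replicate 12. The order Cr2, Fcmr, Fcer2a held in each Dox library, while the ratios between them varied: that of Fcer2a to Cr2 was 0.30, 0.35 and 0.62 in replicates 10, 11 and 12, and that of Fcmr to Cr2 was 0.38, 0.77 and 0.96. Without Dox that sum was 201 to 228 CPM, and Ms4a1 was 2.0% to 2.42% of it. Cd24a was 198% to 214% of the sum without Dox and 6.18% to 7.31% with Dox, and Mzb1 13.4% to 20.1% and 2.60% to 3.14%. The sum itself rose to 2343 to 2545 CPM with Dox, so a gene that rose less than the sum is lower with Dox on this scale, as Mzb1, Cd37, Cd1d1 and Cd9 were.

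**Figure D2:**
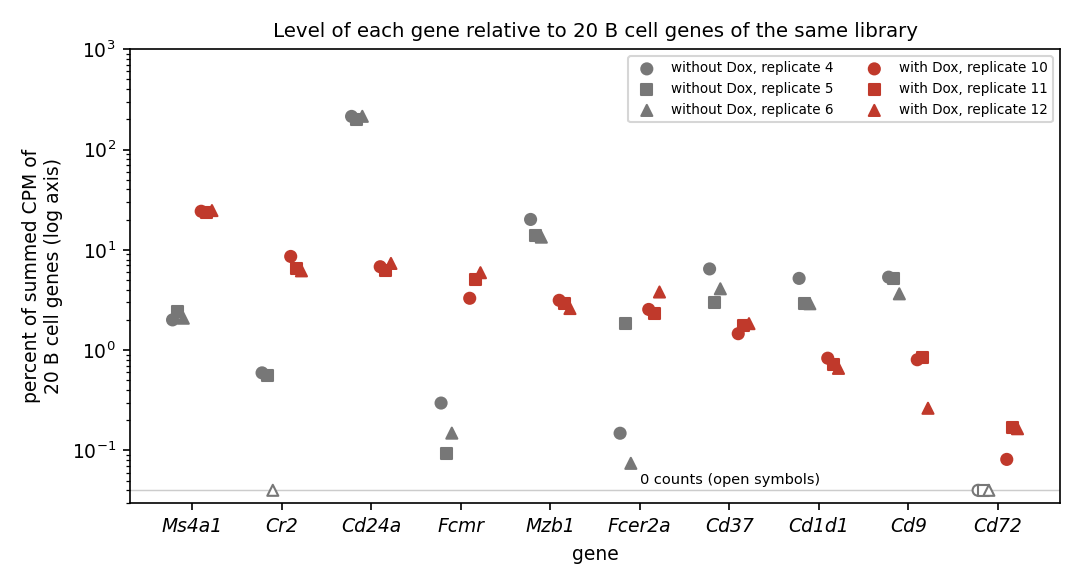
Level of each gene as a percent of the summed CPM of 20 B cell genes in the same library (log axis), grey without Dox and red with Dox, symbol shapes for replicates, open symbols for 0 counts. Ms4a1 lies at 23.8% to 24.6% in the 3 Dox libraries, and Cd24a, Mzb1, Cd37, Cd1d1 and Cd9 lie lower with Dox after division by 20 genes that rose more.

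The general B cell genes rose in 20 of 20 cases (edgeR, adjusted p under 0.05; median log2 fold change 5.02), beside 23.6% of all genes. The transcription factor Ebf1 went from 5.33 ± 2.0 to 393 ± 64 CPM and the kinase Blk from 0.25 ± 0.43 to 21.6 ± 9.6 CPM (SD, n = 3 each). The fitted log2 fold change of Blk was 6.19, with 10.2 without replicate 4, which held its 5 counts without Dox, and 5.54 without replicate 6. These genes had their median level without Dox at 3.06% of the level with Dox. Set beside that, Cr2, Fcmr, Ms4a1 and Fcer2a stood at 0.33% to 2.16% of their level with Dox, Cd37 at 23.4%, Cd1d1 at 43.6%, Mzb1 at 48.1% and Cd9 at 64.5%.

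Of 10 other genes that are high in follicular B cells, 9 rose and 1 fell (edgeR, adjusted p under 0.05; median log2 fold change 3.45). Cxcr5, the receptor that guides B cells to follicles, had 1 count in all libraries without Dox and 73 to 267 counts in each Dox library. Its ratio of summed counts, scaled for library size, was 339 (95% interval 60.6 to 13428, counting error only). Ighd, the IgD heavy chain of mature naive B cells, had 2, 1 and 0 counts without Dox and 146 to 294 counts in each Dox library. Its ratio, scaled in the same way, was 140 (95% interval 47.6 to 679, counting error only). With so few counts the fitted log2 fold changes depended on single libraries: that of Cxcr5 was 7.95, with 10.1 without replicate 5 and 7.36 without replicate 4, and that of Ighd was 7.03, with 6.40 without replicate 6 and 7.76 without replicate 4.

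Of 10 other genes that are high in marginal zone B cells, 5 rose, 1 fell and 4 passed on neither side (edgeR, adjusted p under 0.05; median log2 fold change 1.42). S1pr3, a sphingosine phosphate receptor, went from 1.10 ± 1.43 to 13.0 ± 1.8 CPM (SD, n = 3 each; edgeR adjusted p = 0.0085), and Fcrl5, an Fc receptor-like protein, from 0.64 ± 0.56 to 6.45 ± 2.88 CPM (edgeR adjusted p = 0.022). The counts of S1pr3 without Dox were 4, 0 and 16, and its log2 fold change was 3.52 with all libraries and 5.14 without replicate 6. That of Fcrl5 was 3.27, and 2.66 without replicate 5. Fcrl5 missed the threshold without replicate 4, 5 or 6 in turn (adjusted p = 0.0590 to 0.0683), and the number of genes that rose was then 3 without replicate 4 or 5. The scavenger receptor Cd36, the plexin Plxnd1 and Myof were the other 3 that rose. Dtx1, a NOTCH target that T cell precursors express too, dropped by 1.41 ± 0.16 (log2, SE; edgeR adjusted p = 7.15e-05). Whether follicular and marginal zone genes differed from each other was not tested.

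**Figure D3:**
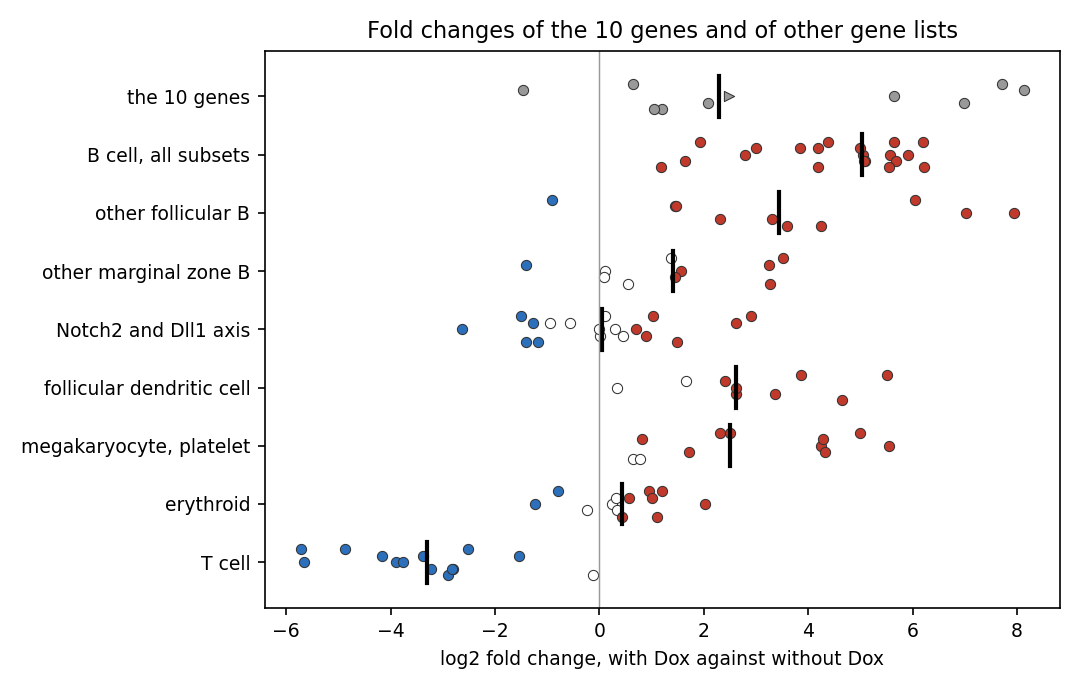
Log2 fold change (with Dox against without Dox) of each tested gene, by list; black bars are medians, triangles are lower bounds, red and blue mark genes higher or lower at an adjusted p under 0.05, open points the rest, and the 10 genes are grey because they were chosen on this contrast. The median of the general B cell genes is 5.02, of the other follicular genes 3.45 and of the other marginal zone genes 1.42, and T cell genes lie to the left.

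Of 18 genes of the Notch2 and Dll1 axis, 6 rose, 5 fell and 7 passed on neither side (edgeR, adjusted p under 0.05; median log2 fold change 0.05). With 23.6% of all tested genes higher and 22.1% lower, these counts are near the background. Notch2 itself was 22.1, 27.6 and 29.2 CPM without Dox and 32.7, 25.4 and 26.5 CPM with Dox. Its groups overlapped, with a log2 fold change of 0.10 ± 0.24 (SE, edgeR adjusted p = 0.758). Dll1, the ligand on stromal cells, was 1.26 ± 0.62 and 7.70 ± 3.20 CPM (SD, n = 3 each; edgeR adjusted p = 0.013), a call lost without replicate 4 (adjusted p = 0.064) or without replicate 10 (adjusted p = 0.054). Lfng, a glycosyltransferase that modifies NOTCH receptors and favours DLL1 binding, went from 4.56 ± 2.94 to 34.7 ± 5.6 CPM (SD, n = 3 each; edgeR adjusted p = 0.00098). The NOTCH targets Nrarp and Hes1 fell from 32.3 ± 6.4 to 5.18 ± 3.39 CPM and from 201 ± 22 to 71.2 ± 16.5 CPM (SD, n = 3 each; edgeR adjusted p = 0.0020 and 0.00027).

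**Figure D4:**
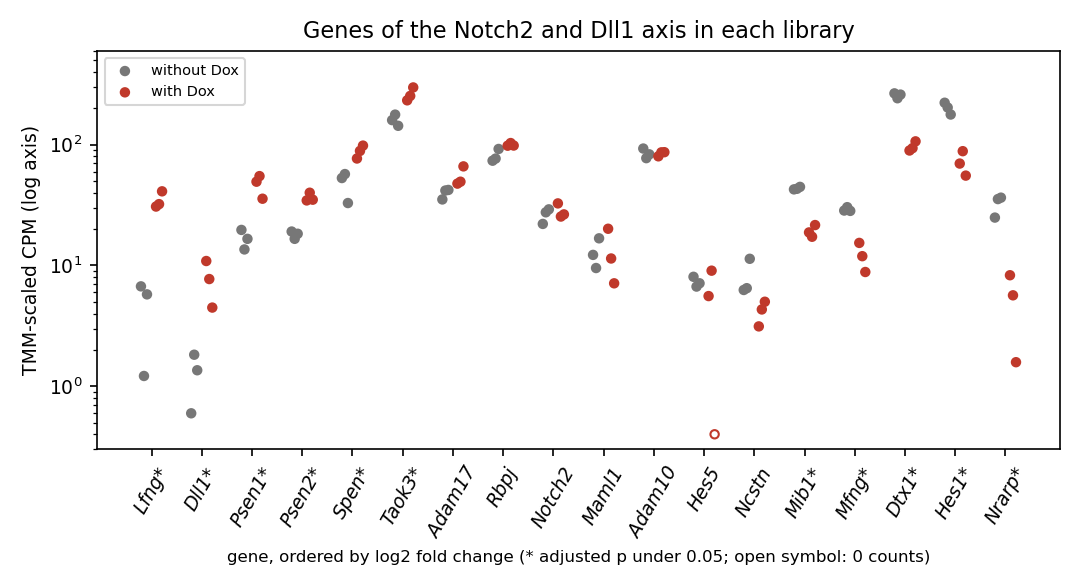
TMM-scaled CPM (log axis) of 18 genes of the Notch2 and Dll1 axis in each library, grey without Dox and red with Dox, ordered by log2 fold change; stars mark an adjusted p under 0.05 and the open symbol 0 counts. Lfng and Dll1 lie at the left with red above grey, Notch2 in the middle with overlapping points, and Nrarp at the right with grey above red.

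Partners and ligands of the 10 genes were read from a list of 16, of which 9 rose, 2 fell and 5 passed on neither side (edgeR, adjusted p under 0.05; median log2 fold change 1.01). Cd81, a tetraspanin that associates with the Cr2 product, had only 0 to 27 counts in every library. No difference was called for Cd81 (log2 fold change -0.40 ± 1.28 (SE), edgeR adjusted p = 0.821). The complement genes C3 and C4b, whose products Cr2 binds after cleavage, rose by 2.29 and 3.37 on the log2 scale, and the complement regulator Cr1l rose by 0.77 (edgeR adjusted p = 0.0057), a call lost without replicate 5 or 6 (adjusted p = 0.0557 and 0.0580). Ighm, the heavy chain of the IgM that Fcmr binds, was 117 ± 10 and 455 ± 69 CPM (SD, n = 3 each). Ighe, the heavy chain of the IgE that CD23 binds, had 583 to 740 counts without Dox and 0 counts in each Dox library. That was at least 270-fold lower against the floor, counting error only.

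Other partners moved less evenly. Ptpn6, which encodes SHP-1, rose by 1.43 on the log2 scale (SE 0.17), and Siglecg, which binds CD24, went from 0.56 ± 0.57 to 25.5 ± 8.6 CPM (SD, n = 3 each). Siglecg rose by 5.55 on the log2 scale, or by 6.58 without replicate 5. B2m, the light chain of CD1d, rose by 1.17 (SE 0.35, edgeR adjusted p = 0.020), but its groups overlapped and the call was lost in 5 of the 6 fits that left out 1 library (adjusted p = 0.0523 to 0.0985 in those 5). Hsp90b1, the chaperone that Mzb1 assists, rose by 0.84 (SE 0.15, edgeR adjusted p = 0.0014), while the chaperone Hspa5 did not pass (log2 fold change -0.23 ± 0.16 (SE), adjusted p = 0.271). Ptgfrn, a partner of CD9, fell by 2.38 (SE 0.36), and the CD9 partner Igsf8 did not pass (log2 fold change -0.58 ± 0.42 (SE), adjusted p = 0.285). Neither Sema4d, the ligand of CD72, nor the selectin Selp passed the threshold (edgeR log2 fold changes 0.07 ± 0.27 and 1.27 ± 0.73 (SE), adjusted p = 0.845 and 0.183).

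Cr2 and Fcer2a are also made by follicular dendritic cells, the stromal cells that hold antigen in follicles. Of 10 genes of these cells 9 were tested and 7 rose (edgeR, adjusted p under 0.05; median log2 fold change 2.62), and their summed level was 337 to 387 CPM without Dox and 1393 to 1432 CPM with Dox. Cxcl13, the chemokine that draws B cells into follicles, went from 2.50 ± 0.34 to 115 ± 5 CPM and Clu from 17.0 ± 0.5 to 427 ± 108 CPM (SD, n = 3 each). Pdpn had 0 to 25 counts and Sox9 0 to 23 counts over the 6 libraries. The part of these cells in the levels of Cr2 and Fcer2a was not tested.

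Genes of other B cell stages were read beside the mature markers. Of 10 early and transitional genes 7 were tested, with 3 higher and 4 lower (edgeR, adjusted p under 0.05), and 1 and 1 with at least 10 counts in every library. Vpreb3, found from pre-B to transitional cells, rose by 3.37 and Bst1 by 2.55 on the log2 scale, whereas Dntt and Rag1, enzymes of receptor gene assembly that T cell precursors share, fell by 8.89 and by 5.23. Replicate 10 held all 7 counts of Dntt with Dox, and the fitted value was -12.99 without it and -8.23 without replicate 11. Vpreb2 and Igll1, parts of the surrogate light chain of pre-B cells, had 0 counts in all 6 libraries. Of 9 germinal centre genes 6 were tested and 2 rose, near the 23.6% of all genes: Efnb1 (log2 fold change 2.44 ± 0.44 (SE)) and Mybl1 (1.31 ± 0.46 (SE), edgeR adjusted p = 0.040), and the call of Mybl1 was lost in several alternatives (adjusted p up to 0.158). Between 1 and 3 germinal centre genes were higher when 1 library was left out, with 3 without replicate 11 and 1 in each of the other fits. Of 11 plasma cell genes 10 were tested, with 3 higher and 3 lower, near the 23.6% and 22.1% of all genes. Slamf7 went from 5.26 ± 0.47 to 68.6 ± 2.9 CPM (SD, n = 3 each) and Prdm1, the transcription factor of plasma cells, from 4.16 ± 1.76 to 13.6 ± 4.5 CPM (edgeR adjusted p = 0.016, lost without replicate 5, 6 or 10). Sdc1, the plasma cell marker CD138, fell by 3.87 and the folding factor Edem1 fell by 1.38 on the log2 scale. Without replicate 11, which held 58 of its counts with Dox, the log2 fold change of Sdc1 was -5.90. Irf4, the third that rose, and Jchain, the third that fell, changed by 0.66 and -0.58 on the log2 scale (edgeR adjusted p = 0.035 and 0.024), and were named after their values were seen. Leaving out 1 library at a time left 1 to 3 plasma cell genes higher (1 without replicate 5, 6 or 10) and 2 to 4 lower.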

How the data were processed

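RNA was measured in 3 spleen libraries without Dox and 3 with Dox by 3′ end sequencing. The authors deposited raw read counts per Entrez gene, with 1 column per library; STAR, featureCounts and GRCm38 are named per the submitters' processing notes, while annotation, strand setting and versions are not given in the sources used here. Columns were matched to samples by title, and 0 columns were left over. Symbols came from RefSeq (GRCm38.p6) and were found for 39374 of 40808 gene IDs. Counts were filtered (filterByExpr, minimum count 10), scaled by TMM and tested with edgeR 4.0.16 (quasi-likelihood, no covariate) in R 4.3.3, with Benjamini-Hochberg adjustment over 14110 genes and a threshold of 0.05. The pipeline was tested on simulated data. The SE of a log2 fold change was taken as its size over the root of F. Lower bounds use 3 counts in the library with the highest floor. Intervals of count ratios are exact binomial (95%). Members and lists were chosen with earlier results of these data known, and lists name the 2 strongest genes each way, all partners, Notch2 and Dll1; others (Cd53, Irf4, Jchain, Cd36, Plxnd1, Myof, Tspan and marker genes at 0) were named after their values were seen. Alternatives were RLE, upper-quartile or no factors, other filters, removal of haemoglobin, immunoglobulin and mitochondrial genes, DESeq2 1.42.0, limma-voom (limma 3.58.1), a threshold of 0.01 and leaving out each library. A few list genes are not reported here by name.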

Additional observations from a re-analysis of the deposited data

How the results depend on the processing

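No paired analysis was possible because replicate numbers 4 to 6 and 10 to 12 do not recur across groups. The direction of the 10 genes was the same in each alternative that gave a value. With at least 10 counts in every library, genes that are near 0 without Dox drop out, and 5 of the 10 genes with a positive log2 fold change, 5 follicular genes and 12 general B cell genes called higher were left. At an adjusted p under 0.01, 2200 genes and 3 marginal zone genes were called higher. Leaving out each library in turn gave 3 to 6 marginal zone genes, 8 to 9 follicular genes, 20 general B cell genes and 4 to 6 Notch2 axis genes called higher, and 4794 to 7025 genes called in all. With library size as the only scaling, the median over all genes was 0.38 on the log2 scale (0.07 with TMM) and 64.3% of called genes were higher (51.6% with TMM); Hspa5 then reversed to 0.077. By limma-voom 45.1% and without a filter 44.7% were higher. Without a filter Sema4d reversed to -0.071 and Notch2 to -0.029. Of the fits without 1 library, Notch2 ran from -0.048 (without replicate 4) to 0.15, with -0.042 without replicate 10. Sema4d ran from -0.23 to 0.30, with -0.086 and -0.036 without replicates 5 and 6. Cd81 ran from -1.50 to 0.33, with 0.17 without replicate 11. The cause of these reversals was not tested; none of the 4 genes passed the threshold. Low counts limit Cd72 and the levels without Dox of Cr2, Fcmr and Fcer2a.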

Other observations

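Genes of other spleen cells also differed between the libraries in which the B cell markers were read. Neutrophil genes rose in 12 of 12 cases (edgeR, adjusted p under 0.05; median log2 fold change 5.18), from a summed level of 54.6 to 71.3 CPM without Dox to 2250 to 2392 CPM with Dox. With at least 10 counts in every library, 4 were called higher. Ly6g, a neutrophil surface protein, had 0 counts without Dox and 196 to 503 counts in the Dox libraries (a rise of at least 75.3-fold over the floor), and the granule protein Ngp went from 1.26 ± 0.67 to 232 ± 22 CPM (SD, n = 3 each). Of 12 macrophage and dendritic cell genes tested, 4 were higher, 3 lower (1 without replicate 4) and 5 on neither side, near the 23.6% higher and 22.1% lower of all tested genes. Siglech, of plasmacytoid dendritic cells, went from 0.47 ± 0.82 to 26.7 ± 5.2 CPM and Marco, of marginal zone macrophages, from 9.20 ± 3.34 to 136 ± 41 CPM (SD, n = 3 each). The log2 fold change of Siglech was 5.95, and 10.6 without replicate 5, which held its 7 counts without Dox. Adgre1, the macrophage marker F4/80, fell by 1.68 (edgeR adjusted p = 0.0079; 0.055 without replicate 4) and the complement gene C1qb fell by 1.26 on the log2 scale (adjusted p = 0.0024).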
